A study of Glycine max with 4 samples.

Results

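In soybean (Glycine max) leaves, 141 of 54175 gene models fell under drought in both of the lines compared, Pana and PI 567690. A gene was taken when, in each line alone, its highest drought library lay below its lowest control library and the mean of FPKM + 1 in the controls was at least 2 times that under drought. FPKM is a read count corrected for gene length and for sequencing depth. The genes were thus chosen by their FPKM in drought and control libraries, so the falls below are a description and carry no test.

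Pana carries the label of the susceptible line and PI 567690 that of the tolerant one, and they contrast in canopy wilting. All plants were raised in large pots with a soil and sand mix, and leaves were collected at the R2 reproductive stage. In each line a control group was set against a drought group, which had been under water stress for 15 days from the V5 vegetative stage. Each group held 3 libraries, which the design text calls biological replicates. The 3 libraries of a group are columns of 1 deposited sample, and nothing in the labels says which plants a library came from. The p-values below therefore set differences against the spread between these libraries, which may not be the spread between plants.

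When the soil dries, a leaf closes its stomata, takes up less carbon dioxide and stops expanding, and transcripts for photosynthesis, cell wall growth and nitrogen assimilation commonly decline while protective ones rise. Wilting of the canopy is the visible loss of turgor in that process, and slow wilting is a trait that soybean breeders select for. Which of these processes the 141 genes belong to is not given here: the table lists identifiers only, and 0 of the 54175 matched the name table used, which lists 59048 genes. Their presence in leaf cells could not be checked against leaf markers for the same reason. In RNA from whole leaves, fewer cells that hold a transcript and less of it per cell cannot be told apart.

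In Pana 731 gene models met the rule, or 1.35% of all, and in PI 567690 2910 did, or 5.37%. The 141 shared genes were 19.3% of the Pana list and 4.85% of the PI 567690 list. As many genes, 141, fell in PI 567690 and rose in Pana by the mirrored rule, and 49, or 6.70% of the Pana list, fell in Pana and rose in PI 567690. By the mirrored rule 548 genes rose in both lines. All 141 falling genes reached 1 FPKM in at least 3 libraries, as 32697 gene models did, and all were tested. In 138 of them every control library held at least 1 FPKM.

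The libraries did not all sit with their group, and the number of shared genes turned on one of them. Over all tested genes drought library 3 of Pana was closest to control library 1 of PI 567690 (r = 0.938, across genes) and reached at most 0.863 with a library of its own group. The labels do not tell an exchanged library from a plant under less stress, and neither was tested, so every Pana drought mean carries this doubt. Drought libraries 1 and 2 of Pana were closest to drought library 1 of PI 567690 (0.920 and 0.936, against 0.901 within their group), which in turn was closest to drought library 2 of Pana (0.936, against 0.925). Pana control library 1 reached 0.864 within its group, its highest correlation with any library. Without Pana drought library 3 the rule was met by 626 genes, which included 140 of the 141. Of the 2769 genes that met the rule in PI 567690 alone, 486 (17.6%) also met it in Pana once that library was left out. Without Pana control library 3 the count was 223, which included 131 of the 141. When libraries were scaled to equal median ratios the rule gave 273 genes, among them 138 of the 141. That scaling moved the median log2 change of all tested genes from 0.32 to 0.03 in Pana and from 0.21 to 0.01 in PI 567690. Drought libraries 2 and 3 of PI 567690 had nearly the same values (r = 0.992), and averaging them into 1 library gave 158 genes.

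Whole read counts that fit the values were found for 98 of the 141 genes from the steps in low FPKM values. A control library held a median of 338 reads of such a gene and a drought library 63. By library the medians were 436, 361 and 450 reads in the Pana controls and 21, 76 and 238 reads under drought in Pana. They were 251, 409 and 258 reads in the PI 567690 controls and 20, 68 and 82 reads under drought. In 44 of the 98 genes at least 1 drought library held fewer than 10 reads, so their drought levels are imprecise. Some high counts are too high. In Glyma15g10150, Glyma04g02610, Glyma09g03020 and Glyma18g01530 all counts but 1 share a common factor, so most likely a multiple of the reads was found. By the size of the steps the depth of the libraries ranged from 48.3% to 100% of that of the deepest, Pana drought library 3.

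**Figure D1:**
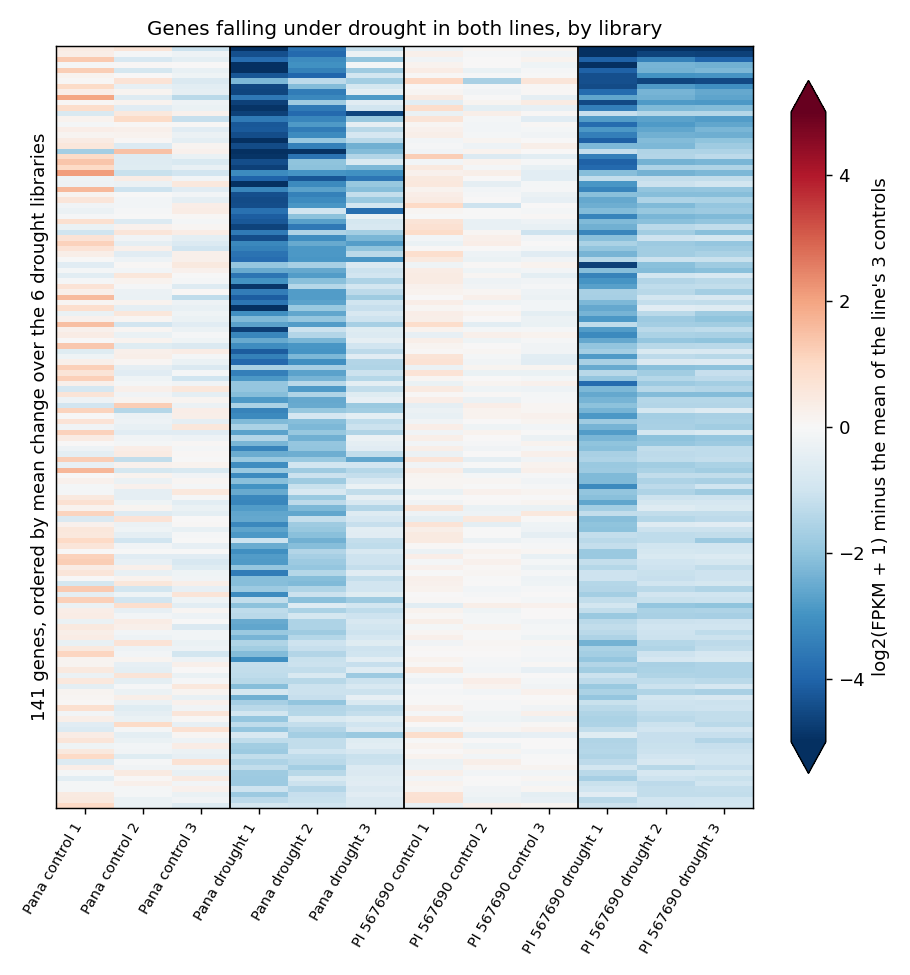
Each row is 1 of the 141 genes and each column 1 of the 12 libraries, and the colour gives log2(FPKM + 1) minus the mean of the 3 controls of the same line. The genes are blue in all 6 drought libraries, darkest in Pana drought library 1 and PI 567690 drought library 1 and palest in Pana drought library 3.

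The rule favours genes with high controls, so the levels of the 141 in watered leaves are given as a description. Their control means had a median of 24.1 FPKM for Pana, where that of all tested genes was 4.36 FPKM. For PI 567690 the medians were 13.6 and 5.23 FPKM. Under drought the median was 5.26 FPKM for Pana, where all tested genes had 6.11 FPKM, and 2.97 FPKM for PI 567690, where they had 6.16 FPKM. A mean of at least 10 FPKM over the controls of both lines was reached by 96 genes, and of at least 100 FPKM by 16, while 45 stood under 10 FPKM.

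The median log2 change on the log2(FPKM + 1) scale was -1.86 in Pana and -1.57 in PI 567690, against 0.32 and 0.21 over all tested genes. The quartiles of the genes lay at -2.63 and -1.46 in Pana and at -2.08 and -1.22 in PI 567690. The fall was at least 4-fold in 52 genes in Pana, in 36 in PI 567690 and in 21 in both. It was at least 8-fold in 13, 8 and 1. In limma's fit over all tested genes 46 of the 141 had an adjusted p under 0.05 for the fall in Pana, where 0.658% of tested genes were called lower. In PI 567690 77 had one, where 6.25% of tested genes were called lower. Nothing is read from these counts, since the rule used the same contrasts.

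The single gene at least 8-fold lower in both lines was Glyma06g11560. The Pana controls held 55.2, 12.2 and 15.1 FPKM of it and the Pana drought libraries 0.619, 1.59 and 4.90 FPKM. The PI 567690 controls held 18.6, 21.5 and 24.3 FPKM and the drought libraries of that line 0.357, 1.17 and 0.441 FPKM. The controls of the lines overlapped, and every drought library was below every control. The reads behind the drought values were 22, 50 and 199 in Pana and 7, 32 and 14 in PI 567690. The fold of its FPKM + 1 means was 8.47 in Pana and 13.6 in PI 567690.

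Glyma13g25181 came next by the smaller of its falls, 9.05-fold in Pana and 6.57-fold in PI 567690. Its Pana controls were at 128, 28.6 and 41.5 FPKM and its Pana drought libraries at 0.0458, 4.21 and 15.0 FPKM. In PI 567690 it went from 38.0, 23.2 and 27.8 FPKM to 0.830, 4.83 and 5.34 FPKM. In both lines drought library 1 was the lowest: it held 3 reads of this gene in Pana and 30 in PI 567690.

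The most abundant of the 141 genes was Glyma18g04081. It stood at 10413, 11213 and 8166 FPKM in the Pana controls and at 790, 1539 and 4942 FPKM under drought in Pana. In PI 567690 it went from 5776, 3977 and 4210 FPKM to 979, 1983 and 1958 FPKM. Glyma11g34230 followed, at 5309, 8000 and 5941 FPKM in the Pana controls and at 639, 1612 and 4295 FPKM under drought. In PI 567690 it went from 5266, 3800 and 4099 FPKM to 1028, 1860 and 1826 FPKM. Within each of these genes the order of the drought libraries was the same in Pana, library 1 lowest and library 3 highest, and in PI 567690 library 1 was again the lowest. Their lowest libraries still held 790 and 639 FPKM.

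**Figure D2:**
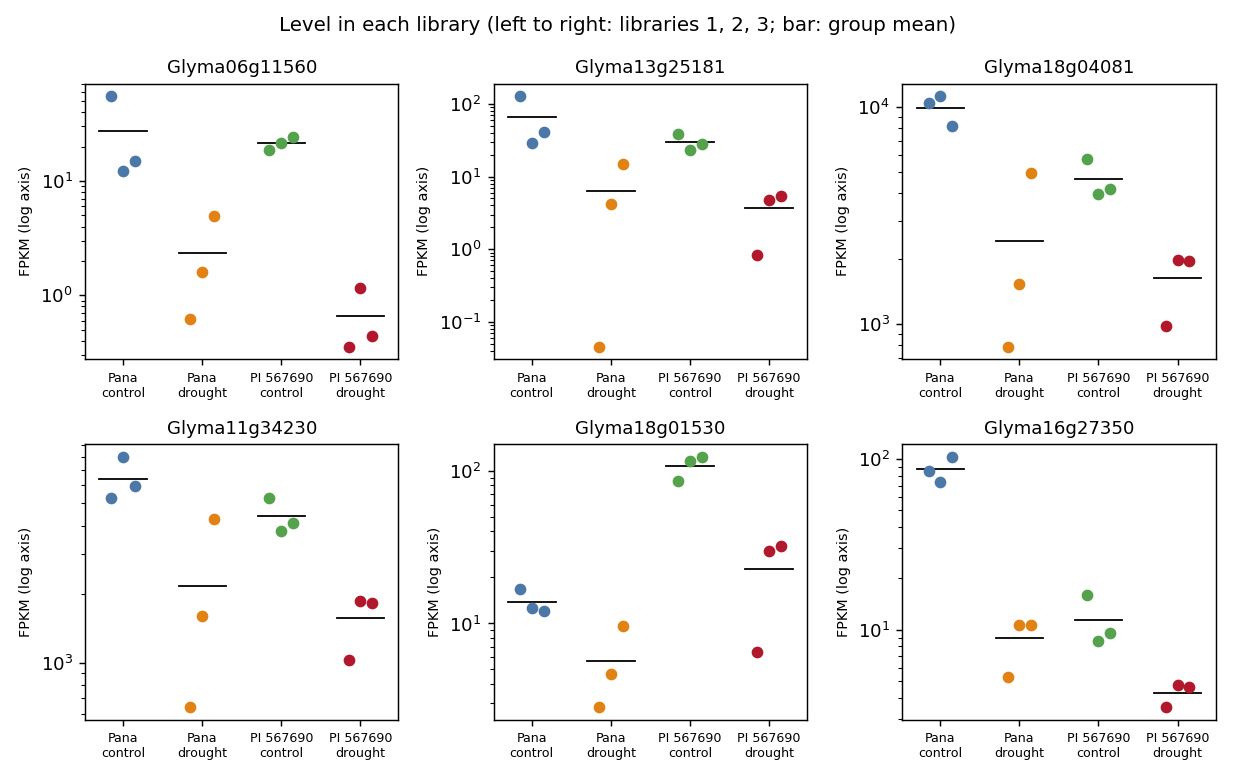
Level of 6 of the genes in FPKM (log axis) in each library, with libraries 1, 2 and 3 of a group from left to right and a bar at the group mean (n = 3). Pana drought library 1 is the lowest library of its group in all 6 panels, and for Glyma16g27350 the Pana controls, at 73.2 to 103 FPKM, stand far above those of PI 567690.

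The largest falls on the log2 scale were those of Glyma16g27995, a gene singled out after its values were seen. It stood at 1474, 1742 and 522 FPKM in the Pana controls and at 1.81, 85.6 and 484 FPKM under drought, a log2 change of -4.49. In PI 567690 it went from 1993, 2591 and 2658 FPKM to 6.10, 48.6 and 48.6 FPKM, a log2 change of -6.53. Its Pana groups were parted by little, since drought library 3 at 484 FPKM lay just under control library 3 at 522 FPKM. Its reads could not be recovered.

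At the other end, 15 of the 141 genes were under 1 FPKM in all 6 drought libraries. Their control means over both lines ran from 1.73 to 16.9 FPKM, with a median of 2.79 FPKM, so most of them were low in watered leaves too. In Pana drought libraries 1 and 2 alone 34 genes were under 1 FPKM, and in the 3 PI 567690 drought libraries also 34. The highest control mean among the 15 was that of Glyma02g47770, named for that after its values were seen. It stood at 3.88, 6.60 and 1.86 FPKM in the Pana controls and at 47.4, 6.71 and 35.1 FPKM in the PI 567690 controls. Under drought 0, 23 and 15 reads of it were recovered in Pana, and 2, 0 and 1 reads in PI 567690.

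Near the threshold, Glyma13g17860 and Glyma10g26380 lay just inside, both with a fold of 2.04 in PI 567690, and with folds of 3.54 and 4.37 in Pana. Glyma09g34285 and Glyma13g28390 lay just outside, both with a fold of 1.99 in PI 567690, and with folds of 2.06 and 2.77 in Pana. Of the 141 genes 64 had a smaller fold under 2.5, and 161 further genes, whose drought and control libraries did not overlap in either line either, had a smaller fold of 1.5 to 2. The number of genes therefore rests on the fold asked for: it was 302 at 1.5-fold and 45 at 3-fold.

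The depth of the fall differed between drought libraries of the same line, which the rule does not compare with each other. Against the mean of the 3 Pana controls the median log2 change of the 141 genes was -2.83 in Pana drought library 1, -1.91 in library 2 and -1.02 in library 3. Against the PI 567690 controls it was -1.98, -1.40 and -1.34 in drought libraries 1, 2 and 3. Over all tested genes the corresponding medians were 0.38, 0.39 and 0.16 in Pana and 0.32, 0.15 and 0.15 in PI 567690.

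Pana drought library 1 was the lowest of its group in 117 of the 141 genes (83.0%), against 34.6% of all tested genes. Pana drought library 3 was the highest in 118 (83.7%), against 28.3% of all tested genes. PI 567690 drought library 1 was the lowest of its group in 114 (80.9%), against 33.9%. Much the same order was seen in the 2769 genes that met the rule in PI 567690 alone. There PI 567690 drought library 1 was the lowest in 83.7%, so its low place is not particular to the 141. Pana drought library 1 was the lowest in 75.0% of the 2769 and Pana drought library 3 the highest in 83.9%. A high Pana drought library can by itself make a gene fail in Pana, and 486 of the 2769 met the rule there without library 3. The Pana order in the 2769 is thus partly set by their choice, and cannot show whether it is particular to the 141. Among the 590 genes that met the rule in Pana alone, Pana drought library 1 was the lowest in 68.8%. PI 567690 drought library 1 was the lowest there in 59.0%. Pana drought library 3 was the highest in 48.5% of the 590. The median of its fall was 1.20, against 1.53 for the mean of libraries 1 and 2. In the 141 genes these medians were 1.02 and 2.30. Among the 2769 genes that met the rule in PI 567690 alone, Pana drought library 3 stood above the Pana controls, with a median log2 difference of 0.72, while libraries 1 and 2 had medians of -0.37 and -0.06. Among the controls, Pana library 1 was the highest of its group in 81 of the 141 genes (57.4%), against 31.7% of all tested genes, and PI 567690 library 1 in 85 (60.3%), against 40.7%. In the 590 genes these shares were 61.2% and 64.2%, and in the 2769 genes 35.5% and 31.7%. What sets the libraries of a group apart was not tested.

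**Figure D3:**
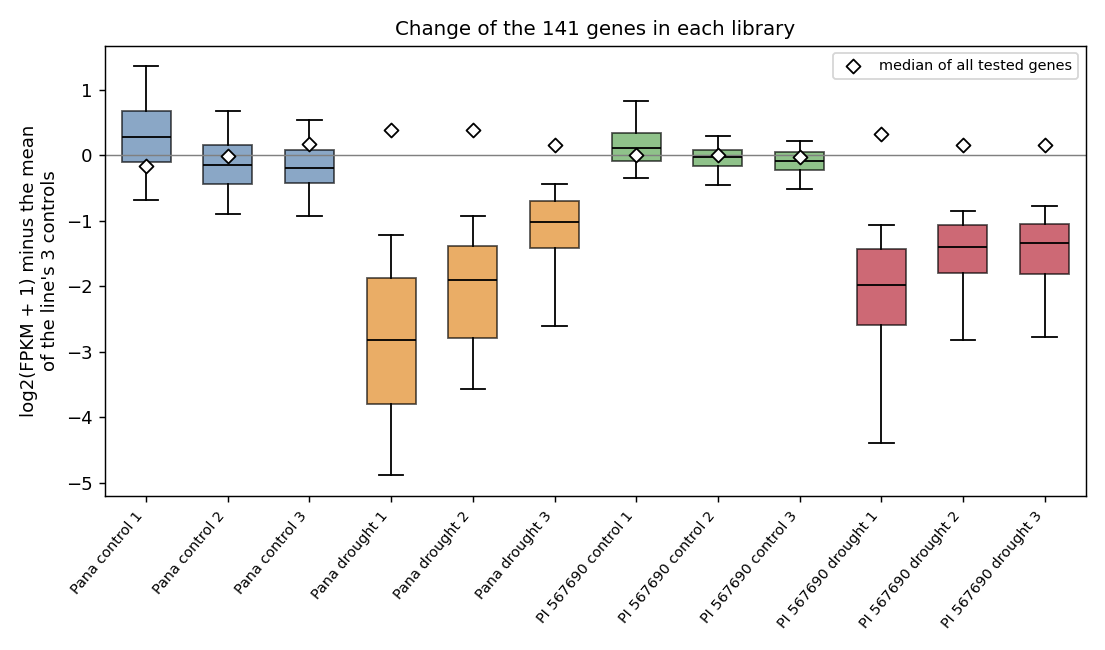
Boxes show the median and quartiles of the 141 genes in each library, and whiskers the 5th to 95th percentile, as log2(FPKM + 1) minus the mean of the line's 3 controls. Diamonds give the median of all 32697 tested genes. The boxes of Pana drought libraries 1, 2 and 3 step up from -2.83 through -1.91 to -1.02, while the diamonds stay between 0.16 and 0.39.

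The sizes of the falls in the lines were loosely related. Across the 141 genes the Pearson correlation was 0.45 and the Spearman correlation 0.43. These are across genes, which share the libraries and are not independent replicates, and the rule sets both axes to values near or below -1. The lines share no library in these contrasts. The fall was larger in Pana in 90 genes and larger in PI 567690 in 51, and in 118 genes the falls differed by less than 1 on the log2 scale. It was larger by at least 1 in Pana in 17 genes and in PI 567690 in 6.

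**Figure D4:**
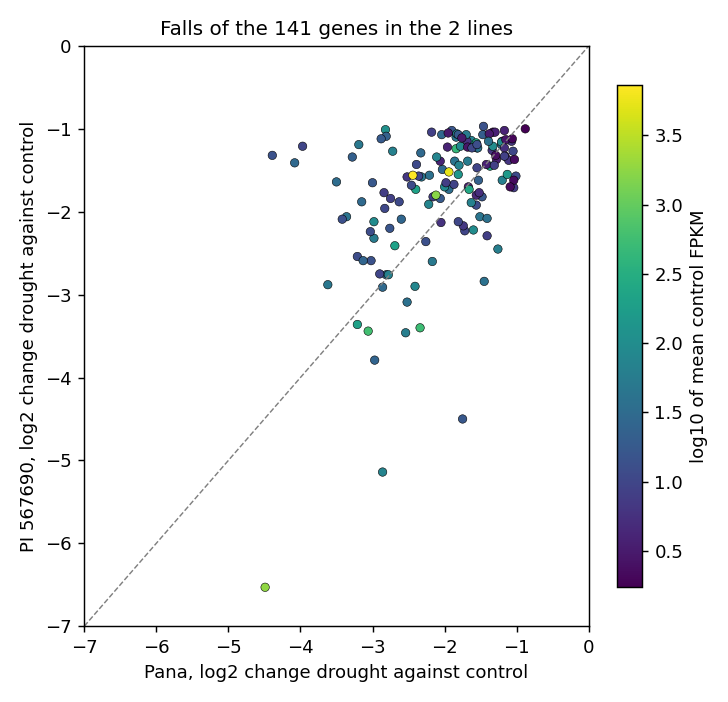
Log2 change under drought in Pana (horizontal) and in PI 567690 (vertical) for the 141 genes, coloured by the log10 of the mean control FPKM, with a dashed line where both are equal. Most points lie between -1 and -3 on both axes, and the lowest point is Glyma16g27995 at -4.49 and -6.53.

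Whether the genes stood at different levels in the lines was asked of contrasts that the rule does not form. They do use the same libraries, and limma's fit takes 1 spread per gene from all 12. In watered plants limma called 9 of the 141 genes lower in PI 567690 than in Pana (adjusted p under 0.05), or 6.38%, against 3.13% of all tested genes. It called 2 higher, or 1.42%, against 11.4% of all tested genes. The log2 difference was negative in 107 of the 141, with a median of -0.47, against a median of 0.20 over all tested genes. The controls of the lines did not overlap in 45 genes that were lower in PI 567690 (31.9%) and in 11 that were higher (7.80%), against 12.5% and 28.1% of all tested genes.

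The balance of the lines shifts with abundance over all genes, so the counts are also given by control level. Between 10 and 100 FPKM, 7 of 80 of the genes (8.75%) were called lower in PI 567690 and 2 (2.50%) higher, against 4.50% and 6.59% of 8798 tested genes. The difference was negative in 81.2% of these 80 genes and in 48.1% of the tested genes. Under 10 FPKM 1 of 45 (2.22%) was called lower and 0 higher, against 2.47% and 13.7% of tested genes, and the difference was negative in 68.9%, against 32.0% of tested genes. At 100 FPKM or more 1 of 16 (6.25%) was called lower and 0 higher, against 6.39% and 1.65% of tested genes. In both of these ranges the share called lower was close to that of all tested genes. At 100 FPKM or more the difference was negative in 68.8%, against 56.8%. The rule asks for high controls in both lines, and replicates spread more widely in Pana, where the median SD of the 141 genes on the log2 scale was 0.507 in the controls against 0.246 in the PI 567690 controls. How far the choice of genes itself moved this balance was not tested. Without Pana drought library 1 or 3, which enter through the spread alone, 14 and 19 genes were called lower, and without PI 567690 control library 2 or 3 the count was 5. The 2 genes called higher became 1 without Pana control library 3 or PI 567690 control library 1 or 3.

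Glyma02g12710 had the largest negative difference. Its controls stood at 11.3, 110 and 45.2 FPKM in Pana and at 1.93, 2.69 and 2.30 FPKM in PI 567690. The groups did not overlap (log2 difference -3.59 ± 0.81 SE, limma adjusted p = 0.0123). Under drought it stood at 0.125, 0.286 and 7.95 FPKM in Pana and at 0.434, 0.163 and 0.137 FPKM in PI 567690, where the lines overlapped.

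Glyma16g27350 stood at 85.4, 73.2 and 103 FPKM in the Pana controls and at 15.9, 8.65 and 9.60 FPKM in the PI 567690 controls (log2 difference -2.86 ± 0.30 SE, limma adjusted p = 3.15e-04). The lowest Pana control was well above the highest PI 567690 control. The drought libraries held 5.30, 10.7 and 10.7 FPKM of it for Pana and 3.52, 4.74 and 4.60 FPKM for PI 567690, and there the difference did not pass the test (log2 difference -0.86, limma adjusted p = 0.485).

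In the other direction Glyma18g01530 stood at 16.7, 12.6 and 12.1 FPKM in the Pana controls and at 85.0, 116 and 123 FPKM in those of PI 567690 (log2 difference 2.87 ± 0.52 SE, limma adjusted p = 0.00407). Under drought it stood at 2.83, 4.69 and 9.57 FPKM in Pana and at 6.55, 29.8 and 31.9 FPKM in PI 567690. The drought levels overlapped, and the difference there did not pass the test (log2 difference 1.68, limma adjusted p = 0.377). The other gene called higher was Glyma02g47770, described above (log2 difference 2.33 ± 0.59 SE, limma adjusted p = 0.0215). All 3 genes named for their line difference by rule kept their call in each alternative run for them, with an adjusted p of at most 0.0492.

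Under drought limma called none of the 141 genes different between the lines: 0 were called higher in PI 567690 and 0 lower, where 0.291% and 0.0979% of all tested genes were. At an unadjusted p under 0.05, 2 genes were higher and 3 lower, and without PI 567690 drought library 1 limma called 1 higher. The groups did not overlap in 13 genes that were lower in PI 567690 and in 0 that were higher, or 9.22% and 0%, against 3.37% and 10.7% of all tested genes. The difference had a median of -0.18 and was negative in 99 genes. The lines lay closer together under drought than under control in 70.9% of the 141 genes and in 71.2% of all tested genes. With 3 libraries a group and the wide spread in Pana, a difference missed by the test is not shown to be absent.

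**Figure D5:**
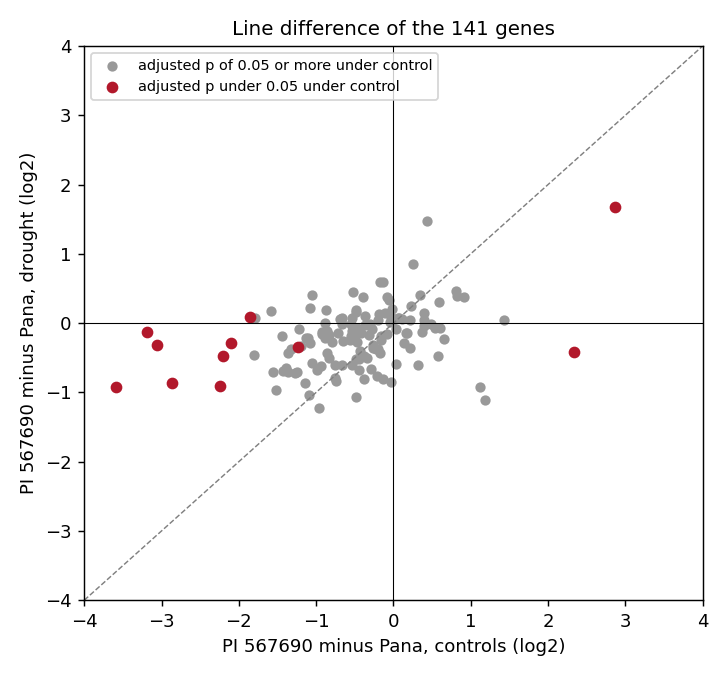
Log2 difference PI 567690 minus Pana in the controls (horizontal) and under drought (vertical) for the 141 genes, with a dashed line where both are equal. The 11 red points passed limma's test under control: 9 lie left of 0 and 2 right of 0, and all but the one at 2.87 and 1.68 lie between -1 and 1 on the vertical axis.

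The genes were spread over the genome. The chromosome is written in each identifier, and all 20 held some of the 141 genes, from 3 each on chromosomes 11, 14 and 19 to 11 on chromosome 13, which also holds 6.65% of all gene models. Identifiers run in order along a chromosome. Of the genes 6 (4.26%) had another of the 141 as the next identifier, in 3 pairs, and 13 (9.22%) had one within 10 identifiers. In the Pana list 6.84% of genes had a neighbour from the list and 30.6% had one within 10 identifiers. In the longer PI 567690 list the shares were 17.6% and 67.5%, and the longest run held 9 genes. A longer list brings more neighbours with it, and the share to be met from list length alone was not worked out. These shares therefore do not say whether the 141 genes lie closer together than other genes.

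The neighbours need not have the same level. Glyma13g25181, described above, lies next to Glyma13g25200, which stood at 7.41, 3.96 and 3.15 FPKM in the Pana controls and at 0, 0.283 and 1.32 FPKM under drought. In PI 567690 it went from 1.43, 1.37 and 1.26 FPKM to 0.0351, 0.176 and 0.206 FPKM. Glyma03g33720 went from 54.8, 19.0 and 29.1 FPKM to 0.720, 3.91 and 16.7 FPKM in Pana and from 28.0, 13.4 and 14.6 FPKM to 3.02, 3.44 and 3.70 FPKM in PI 567690. Its neighbour Glyma03g33730 went from 24.1, 9.83 and 13.9 FPKM to between 0.508 and 6.50 FPKM in Pana and from 9.25, 3.99 and 3.98 FPKM to 1.42, 0.913 and 1.84 FPKM in PI 567690. In all 4 groups control library 1 or drought library 3 was the highest of both of these genes, so they ranked the libraries nearly alike.

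The pair Glyma13g01290 and Glyma13g01300 differed more. Glyma13g01290 held 349, 207 and 299 FPKM in the Pana controls and 116, 91.6 and 115 FPKM under drought, and went from 234, 175 and 209 FPKM to 87.7, 66.9 and 70.0 FPKM in PI 567690. In it the drought libraries lay close together, and library 1 was the highest in both lines. Glyma13g01300 stood at 9.23, 1.19 and 2.04 FPKM in the Pana controls and at 0.155, 0.437 and 1.13 FPKM under drought, and went from 3.88, 2.93 and 3.11 FPKM to 0.562, 0.704 and 0.520 FPKM in PI 567690. Near-identical neighbours can share reads, and how the authors' software divided such reads is not given in the sources used here. Whether these neighbours are alike in sequence was not checked, so the levels within a pair may be uncertain.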

How the data were processed

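Leaf RNA of 4 groups with 3 libraries each was sequenced. The deposited values were taken as the authors' FPKM, a unit read from the values because the header gives none. Per the submitters' processing notes the tools were FastQC, TopHat 1.4.1, Cufflinks and Cuffdiff. The genome build is not given in the sources used here. FPKM is relative, so a few abundant transcripts can lower all others.

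The 141 genes were chosen by their values, and they, the named genes and the lists were set with earlier results of these data known. The 32697 genes that reached 1 FPKM in 3 or more libraries were fitted on log2(FPKM + 1), a scale that understates the change of low genes. The fit used limma 3.58.1 in R 4.3.3 (trend, 1 coefficient per group, all 12 libraries, prior degrees of freedom 3.42, residual 8) with Benjamini-Hochberg adjustment over all tested genes at 0.05. It was tried on simulated data with 1 spread per gene in all groups, so that trial does not cover the wider spread in Pana. No permutation of 3 libraries against 3 can give a two-sided p under 0.1. Reads were recovered from FPKM steps within 0.06 reads. They speak to counting error only.

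Genes were named by rule, 2 per part and direction, mostly with a mean above the 12.0 FPKM median of the 141: the largest smaller fall, the highest control level, the largest line differences that passed the test, neighbours by identifier (each with its partner), and those nearest the 2-fold threshold. Exceptions are marked. The gene lists and promoter motifs could not be applied because no identifier matched. Alternatives covered scaling, pseudocount, filter, thresholds, a replicate block and each library left out. Python 3.11.15, numpy 2.4.6, pandas 2.3.3 and matplotlib 3.10.9 were used.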

Additional observations from a re-analysis of the deposited data

How the results depend on the processing

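The number of genes that met the rule moved with the fold and the offset: 302 at 1.5-fold, 45 at 3-fold, 222 on FPKM + 0.25, 59 on FPKM + 5 and 273 after scaling to an equal median ratio. With each library left out in turn it ranged from 123 to 626. The median log2 change in PI 567690 was -1.98 with a pseudocount of 0.25 and -1.01 with one of 5. In Pana the median ranged from -2.30 to -1.41 over the alternatives run. The genes had been chosen with every drought library below every control of the line. The sign of the median in either line was therefore fixed when a library was left out or the pseudocount changed. Only its size could vary in those runs.

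Of the line differences under control, the 2 genes called higher in PI 567690 became 1 at a mean of at least 5 FPKM, 4 with only the 6 control libraries and 1 at an adjusted p under 0.01, and 1 to 3 with a library left out. Only 1 of the 4 was among the first 2. Without Pana control library 1 the count stayed at 2, but again only 1 was among the first 2. The 9 called lower became 16 with a pseudocount of 5, 17 with only the 6 control libraries and 4 at an adjusted p under 0.01, and 5 to 19 with a library left out. Under drought 0 genes were called higher and 0 lower in every alternative, except that 1 was called higher without PI 567690 drought library 1 (0 to 1 over the libraries left out). The cause of these shifts was not tested. Leaving out a library also removes a degree of freedom.

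With the number in the column names as a replicate block, limma called 2 genes higher and 10 lower under control and 0 under drought, and the medians were -1.86 and -1.57. The labels do not say that a number marks a shared pot, day or batch. Deviations of same-numbered libraries from their group means correlated at 0.66, -0.11 and 0.61 between Pana drought and PI 567690 drought for numbers 1, 2 and 3. For every other pair of groups the correlations lay between -0.06 and 0.18. The numbers were not taken to pair the samples. Whether the drought libraries numbered 1 and 3 share a source across the lines was not tested. The 3 genes named for their line difference kept direction and call in all 60 of their alternative values. An adjusted p under 0.01 was not among these, and Glyma02g12710, at a limma adjusted p of 0.0123, would not pass it. The 3 genes were named for passing the test with large differences, so their kept calls are no separate sign of stability. The drought falls of the other 8 named genes carry no call: 299 values moved by less than the spread between replicates, 5 by more, and 0 reversed. Many of the 299 could not move: a library of the other line left out, another filter or the replicate block leaves a fall as it was. The rule also fixes the sign of a fall when a library is left out or the pseudocount changed. These counts are therefore no sign of stability. Depth limits the lowest levels, since 44 of the 98 genes with recovered reads had under 10 reads in a drought library.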
